A study of Mus musculus with 6 samples.

Results

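The miR-344 family is a set of related microRNAs (miRNAs) encoded by clustered hairpins on mouse chromosome 7. Its members were taken here as the rows of the deposited count table whose name begins with mmu-miR-344 followed by a letter or a hyphen, from either arm of the hairpin. There were 15 such rows among 1182 in the table, and the 10 with the most reads summed over all libraries were kept. The summed read count therefore chose the members, and their order by abundance is a description. The last kept row, miR-344-5p, had 6 reads in all and tied with miR-344c-5p, also at 6, which was left out because it comes later in the table. The row above it, miR-344g-3p, had 15 reads. The other 4 rows left out had between 1 and 5 reads each over all 6 libraries.

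Small RNA was sequenced from total RNA of the brain cortex of adult male mice, untreated, from age-matched mice of the same parentage. The libraries were 3 of the genotype fmr1 KO (Fmr1 knockout) and 3 of fmr1 WT (wild type). Replicate numbers were assigned here in the order of the samples, because the labels give none. The product of Fmr1, FMRP, binds messenger RNAs in neurons and controls their translation, and the comparison asks how miRNA levels differ without it. The labels give neither the knockout allele nor the exact age, and nothing in them says which animal a library came from, so p-values measure the spread between these libraries. Libraries held from 11182888 to 15733876 miRNA reads. Fmr1 messenger RNA is not measured by this assay, so the labels could not be checked on the targeted gene. The neuronal list (13 miRNAs, among them miR-124-3p and miR-128-3p) summed to 472482 CPM in KO replicate 2. In the other 5 libraries it summed to between 325604 and 385537 CPM. All 13 were detected and tested. CPM is read counts scaled to a common library size after TMM normalization. The TMM factor of KO replicate 2 was 0.827, against 0.966 to 1.092 in the other 5 libraries, which raises its CPM values. Scaled by total reads, its neuronal sum was close to that of KO replicate 3, so it did not stand apart. In the KO group, KO replicate 3 stood apart in choroid plexus miRNAs (1637 CPM summed over 4 members, against 676.2 to 776.7 in the other 5 libraries), and the miR-200 family (5 members) summed to 15.7, 904.3 and 970.1 CPM in KO replicates 1 to 3 against 83.9 to 290.0 CPM in WT. For the miR-183 cluster (3 members) the KO sums were 45.9, 1147 and 1026 CPM, against 85.3 to 433.9 CPM in WT. On the TMM scale the microglia and leukocyte list was higher in every KO library (194.0 to 218.4 CPM) than in any WT library (169.9 to 180.4). Of single miRNAs, 85 of 541 (15.7%) had groups that did not overlap on this scale. Scaled by total reads, KO replicate 2 fell within the WT range of this list, so the groups overlapped. The erythroid (80.3 to 120.6 in KO and 75.4 to 83.4 in WT) and the endothelial and mural lists (38483 to 44554 and 35223 to 42566) overlapped. Whether these lists bear on the miR-344 values was not tested.

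A miRNA hairpin is cut into a duplex whose arms are named 5p and 3p. The strand that is loaded into Argonaute pairs with messenger RNAs mainly through its seed, bases 2 to 8, and represses them. The miR-344 family is known from rodents and is expressed in brain. Its cluster lies in the imprinted region that corresponds to the human Prader-Willi locus.

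RefSeq sequences (GRCm38.p6) were found for all 15 rows. The 8 kept 3p members are shown first because their seeds, in capitals, often differ where the bases toward the 3′ end are shared.
miR-344-3p: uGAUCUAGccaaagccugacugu
miR-344c-3p: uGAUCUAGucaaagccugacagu
miR-344b-3p: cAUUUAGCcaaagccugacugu
miR-344d-3p: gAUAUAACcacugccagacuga
miR-344e-3p: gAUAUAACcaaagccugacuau
miR-344h-3p: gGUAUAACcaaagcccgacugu
miR-344f-3p: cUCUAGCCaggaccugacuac
miR-344g-3p: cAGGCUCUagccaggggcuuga
These 8 sequences carry 6 different seeds. The seed GAUCUAG is shared by miR-344-3p and miR-344c-3p, which differ by 2 substitutions outside the seed, C9U and U21A (the base of miR-344-3p first, counted from its 5′ end). The seed AUAUAAC is shared by miR-344d-3p and miR-344e-3p. It is also the seed of miR-410-3p, a miRNA of the imprinted Dlk1-Dio3 cluster and the only other name with this seed among the 970 in the table that have a RefSeq sequence:
miR-410-3p: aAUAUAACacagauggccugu
The seed of miR-344h-3p differs from that of miR-344e-3p by 1 substitution, G2A. An unbroken run of 18 bases, uagccaaagccugacugu, is shared by miR-344b-3p and miR-344-3p. It fills bases 5 to 22 of miR-344b-3p, so it begins within the seed and runs to the 3′ end. The motif CCUGAC, read on the strand of the miRNA, is in 5 of the 8 kept 3p members and in 10 of 970 (1.031%) of the named miRNAs with a sequence, of which the family supplies 5. No other name in the table shares a seed with miR-344-3p, miR-344b-3p, miR-344f-3p or miR-344h-3p. The seed of miR-344g-3p is shared with miR-7070-3p, which had 2 reads.

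The kept 5p members have the seed GUCAGGC in common, which no name outside the family has. The 5p arms of the 3 hairpins that encode miR-344d-3p are shown because their reads differed widely although the 3p arms are identical. Capitals mark the mature arms.
Mir344d-1: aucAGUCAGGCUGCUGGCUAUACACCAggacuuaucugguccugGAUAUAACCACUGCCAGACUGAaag
Mir344d-2: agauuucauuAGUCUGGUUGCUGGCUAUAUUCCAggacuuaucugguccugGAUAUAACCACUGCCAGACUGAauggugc
Mir344d-3: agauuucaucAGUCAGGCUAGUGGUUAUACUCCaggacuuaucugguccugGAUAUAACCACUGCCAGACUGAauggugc
The 5p arm of Mir344d-3 (miR-344d-3-5p) had 902 reads over the 6 libraries, against 1 read each for the 5p arms of Mir344d-1 and Mir344d-2. Over the first 23 bases it differs from the arm of Mir344d-1 by A10G, G11C, U15C and U21A, and from that of Mir344d-2 by A5U, C8U, A10G, G11C, U15C and C20U (the base of miR-344d-3-5p first, counted from its 5′ end). The 5p reads can thus be assigned to 1 hairpin, whereas the 17974 reads of miR-344d-3p could come from any of the 3.

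All 13 Mir344 hairpins lie on the minus strand of chromosome 7 within 402.2 kb (GRCm38, the assembly of mm10, chr7:61683124-62085310). In the direction of rising coordinates they begin with Mir344d-1 (chr7:61683124-61683192), Mir344d-2 (chr7:61685272-61685351) and Mir344d-3 (chr7:61726249-61726328), followed by Mir344e, Mir344h-1 and Mir344h-2. Mir344b (chr7:61790519-61790581), Mir344c (chr7:61837311-61837402), Mir344 (chr7:61877770-61877864) and Mir344-2 (chr7:61940027-61940106) come next, and Mir344g, Mir344f (chr7:62046181-62046248) and Mir344i end the cluster. Hairpins from Mir344d-3 to Mir344 lie in introns of the long noncoding RNA gene A230057D06Rik in the GENCODE M21 annotation, on its strand. Mir344-2 lies in an intron and Mir344g overlaps an exon of the noncoding gene A330076H08Rik, also on its strand. Mir344d-1, Mir344d-2, Mir344f and Mir344i overlap no other annotated gene. The nearest protein-coding gene in the annotation searched around the cluster was Ndn (chr7:62346569-62350262), 261259 bases away on the plus strand, followed by Magel2, Mkrn3 and Peg12, which like Ndn are imprinted and expressed from the paternal chromosome.

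**Figure D1:**
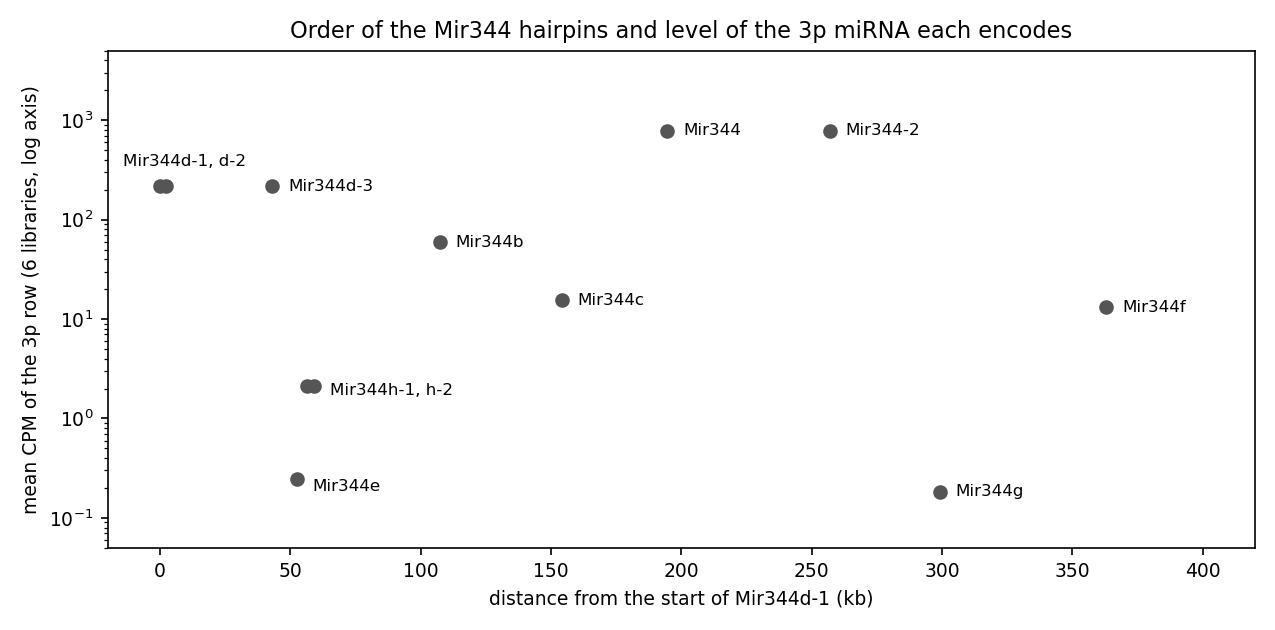
Position of each Mir344 hairpin that has a 3p row in the table (x axis, kb from the start of Mir344d-1) against the mean CPM of that 3p row over 6 libraries (y axis, log scale). Hairpins that encode the same 3p sequence carry the same value, which cannot be divided between them; the highest level, of miR-344-3p, is shown at both Mir344 and Mir344-2, and the lowest levels are those of Mir344e and Mir344g.

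The family was dominated by miR-344-3p, at 834.2 ± 49.4 CPM in WT and 729.4 ± 45.8 CPM in KO (SD, n = 3 each), which ranked 66 of 1182 rows by mean CPM. Its share of the kept family's reads was 73.3% ± 1.57 for WT and 69.2% ± 9.55 for KO. Next came miR-344d-3p with 17.6% ± 1.52 and 21.4% ± 9.01, and miR-344b-3p with 5.49% ± 0.159 and 5.29% ± 0.289. The family as a whole held 0.115% ± 0.00773 of all reads in WT and 0.106% ± 0.0179 in KO. Of the 10 kept members, 9 had reads in all 6 libraries.

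Per base of mature sequence, the order of mean levels over the 6 libraries was miR-344-3p (34.0 CPM per base), miR-344d-3p (9.80), miR-344b-3p (2.70), miR-344c-3p (0.675), miR-344f-3p (0.623), miR-344d-3-5p (0.475) and miR-344h-3p (0.0966). Dividing by length did not alter this order, since the 7 are 21 to 23 bases long. The steps between the leading 3 were larger than the spread between libraries. In CPM, libraries of miR-344c-3p (13.96 to 17.7) and miR-344f-3p (11.1 to 15.1) overlapped, and so did those of miR-344f-3p and miR-344d-3-5p (7.996 to 18.4), so these neighbours in the order are not separated beyond their spread. The near-identical pair miR-344-3p and miR-344c-3p differed in level by a ratio of 54.1 ± 4.39 in WT and 47.5 ± 7.58 in KO (reads of miR-344-3p over those of miR-344c-3p). How the authors assigned reads with mismatches is not given in the sources used here, so some reads of miR-344c-3p could belong to its more abundant relative.

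The remaining 3 kept members were near the limit of detection. Reads of miR-344e-3p numbered 3, 3 and 4 in KO and 4, 4 and 2 in WT, although its hairpin lies between Mir344d-3 and Mir344h-1. Those of miR-344g-3p numbered 2, 3 and 2 in KO and 2, 3 and 3 in WT. The 5p arm miR-344-5p had 1 read in KO replicate 1, 3 in WT replicate 1 and 1 each in WT replicates 2 and 3. It had 0 reads in KO replicates 2 and 3, which allows up to 3 reads (0.252 and 0.247 CPM, counting error only). These members did not reach the count filter and no difference between genotypes was detectable at this depth.

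Reads came almost entirely from the 3p arm. Over all libraries miR-344-3p had 64840 reads against 6 for miR-344-5p, miR-344c-3p 1277 against 6 for miR-344c-5p, miR-344f-3p 1088 against 5 for miR-344f-5p, and miR-344e-3p 20 against 1 for miR-344e-5p. The 5p arms of Mir344h-1 and Mir344h-2 have the same sequence as miR-344e-5p, so that read cannot be assigned to Mir344e. The d hairpins held the largest 5p signal of the family, 904 reads over their 5p arms against 17974 for miR-344d-3p.

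Of the 10 kept members, 7 passed the count filter and were tested, and none passed the edgeR quasi-likelihood test of KO against WT at an adjusted p below 0.05 over 541 miRNAs. The background was 0% (0 of 541). DESeq2 also called 0 of 1182 at an adjusted p below 0.05. With an unadjusted edgeR p under 0.05 were 0 of the 7 members and 35 of 541 miRNAs (6.47%). For miR-344d-3-5p this depended on the setting. Its unadjusted p was 0.0632 here, 0.0481 with RLE size factors, 0.0353 without the 5 most abundant, 0.0251 without the count filter and 0.0428 with DESeq2. It was 0.0693 without robust estimation, 0.107 with limma-voom and 0.124 with limma on TPM. Values were higher in KO for 4 members and lower for 3 (47.5% of all tested miRNAs were lower). The median log2 fold change of the members was 0.0018, beside 0.03 over all tested miRNAs. Adjusted p-values ranged from 0.749 to 0.997. The 95% interval reached a median of 0.48 log2 units to either side of the members' estimates. It was narrowest for miR-344-3p (-0.53 to 0.14) and widest for miR-344d-3p (-0.60 to 1.02). The size of difference that could be told from none therefore varied by member. These intervals are not adjusted for the number of miRNAs tested.

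**Figure D2:**
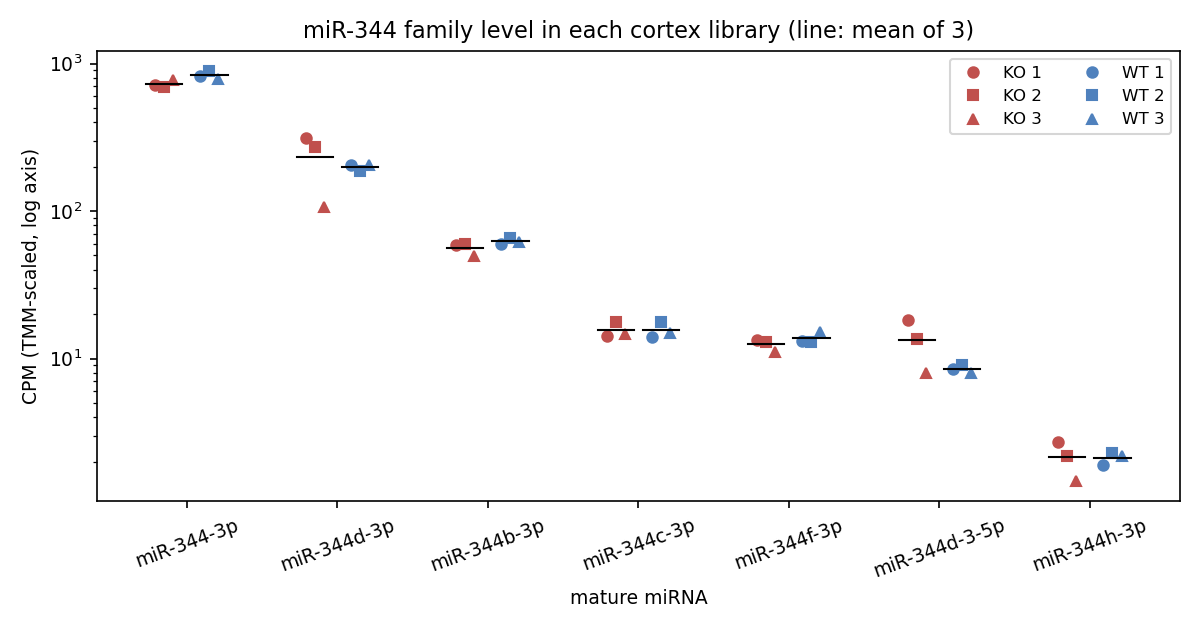
CPM (TMM-scaled, log axis) of the 7 tested members in each of 3 KO (red) and 3 WT (blue) cortex libraries, with a line at each group's mean. The KO libraries of miR-344d-3p spread from 107.2 to 314.2 CPM around WT libraries at 188.1 to 206.1, while those of miR-344-3p lie between 690.7 and 780.0.

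The most abundant member, miR-344-3p, measured 717.4, 690.7 and 780.0 CPM in KO replicates 1 to 3 and 823.2, 888.2 and 791.2 CPM in WT replicates 1 to 3. All such values are given in this order of replicates. It was the only tested member whose groups did not overlap on this scale, as was the case for 85 of 541 miRNAs (15.7%). The gap between the highest KO library and the lowest WT library was small, and the estimate of -0.19 for the log2 fold change (SE 0.15, 95% interval -0.53 to 0.14) did not pass (edgeR adjusted p = 0.791). The separation depends on the scale. In the deposited TPM, KO libraries had 783.1, 570.9 and 846.1 and WT libraries 847.2, 912.2 and 764.6, which overlap, and they also overlapped with size factors in the manner of DESeq2 and with scaling that left out the 5 most abundant miRNAs. Its seed partner miR-344c-3p measured 14.2, 17.7 and 14.7 CPM in KO replicates against 13.96, 17.6 and 14.996 CPM in WT replicates, with means of 15.54 and 15.52 CPM and a log2 fold change of 0.0018 (SE 0.21).

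Among the KO libraries, the arms of the d hairpins had the largest SD of log2 CPM of the tested members (0.843 for miR-344d-3p and 0.600 for miR-344d-3-5p), while among the WT libraries theirs (0.0750 and 0.0801) were below those of 4 other members. Levels of miR-344d-3p reached 314.2, 273.0 and 107.2 CPM in KO replicates, against 205.5, 188.1 and 206.1 CPM in WT replicates. KO replicates 1 and 2 lay above every WT library and KO replicate 3 below every one. The log2 fold change was 0.21 (SE 0.35, 95% interval -0.60 to 1.02, edgeR adjusted p = 0.882). The 5p arm of Mir344d-3 gave 18.4, 13.6 and 7.996 CPM in KO replicates, against 8.52, 8.98 and 8.02 CPM in WT replicates. Here too KO replicates 1 and 2 were above all WT libraries, while KO replicate 3 was at the level of the lowest WT library. In the deposited TPM, KO replicate 3 (8.67) lay within the WT range (7.75 to 9.22), and with scaling that left out the 5 most abundant miRNAs the KO and WT groups of this arm did not overlap. That scaling raised the median log2 fold change over all tested miRNAs by 0.08. The share of all miRNAs whose groups separate under it was not determined, so this separation cannot be set against a background. On the TMM scale the log2 fold change of miR-344d-3-5p was 0.65 (SE 0.30, 95% interval -0.04 to 1.34), the largest in the family, with an edgeR adjusted p of 0.749. The order seen for miR-344d-3p, noticed after the values were seen, was met on the TMM scale by 45 of 541 miRNAs (8.32%). It was met there by 2 of the 7 tested members, of which miR-344d-3-5p did not meet it in TPM.

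Both arms passed the threshold once KO replicate 3 was left out. Without it the log2 fold change was 0.57 for miR-344d-3p (SE 0.12, 95% interval 0.31 to 0.82) and 0.92 for miR-344d-3-5p (SE 0.19, 95% interval 0.51 to 1.34), each with an edgeR adjusted p of 0.0227. In that fit 18 of 560 miRNAs passed (3.21%), 14 of them with higher values in KO (2.5%), and 2 of the 7 members were among these. That fit rests on 2 KO libraries and is described because of values already seen. KO replicates 1 and 2 lay above every WT library in both arms, so leaving out KO replicate 3 favoured a call. With any other library left out, 0 miRNAs passed. Without KO replicate 1 the log2 fold change of miR-344d-3p was -0.06 (adjusted p = 0.959), so its direction also turns on 1 library. KO replicate 3 is the library that was high in choroid plexus miRNAs. On the TMM scale it was also lowest in the oligodendrocyte list (632.2 CPM over 4 members, against 787.0 to 973.7 in the other 5 libraries). Scaled by total reads, KO replicate 2 was lowest in that list instead (TMM factors 0.827 for KO replicate 2 and 1.085 for KO replicate 3). Whether tissue composition bears on the miR-344d values was not tested, and in bulk cortex fewer cells of a type and less RNA per cell cannot be told apart.

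**Figure D3:**
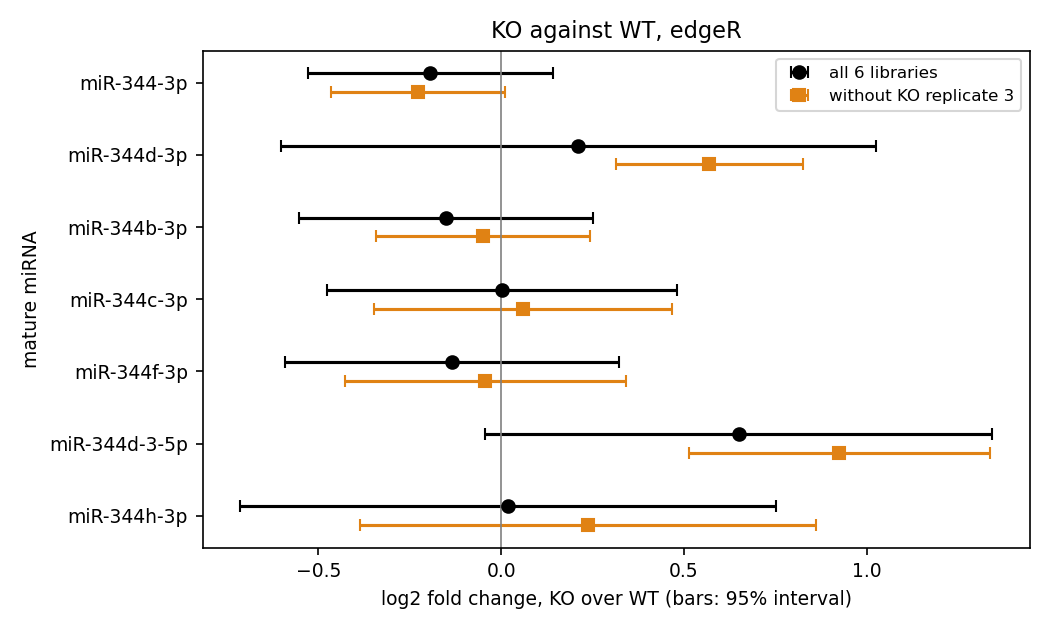
Log2 fold change of KO over WT for the 7 tested members with 95% intervals (edgeR), from all 6 libraries (black) and without KO replicate 3 (orange). With all libraries each interval spans 0. Without KO replicate 3 those of miR-344d-3p (0.31 to 0.82) and miR-344d-3-5p (0.51 to 1.34) do not. The fit without KO replicate 3 was picked for display after the values were seen.

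The share of miR-344d-3p in the family's reads followed the same split. It was 27.6% in KO replicate 1 (95% Wilson interval 26.9 to 28.3) and 25.5% in KO replicate 2 (24.7 to 26.3), but 11.02% in KO replicate 3 (10.5 to 11.6). In WT it was 18.2% (17.7 to 18.8), 15.9% (15.3 to 16.5) and 18.7% (18.2 to 19.3). These shares do not depend on how library sizes are scaled, and the KO libraries lie outside the WT range on both sides by more than counting error. The intervals cover counting error only, because reads were amplified and no molecular identifiers are described.

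Within the d hairpins, the 5p arm took a larger share of reads in KO than in WT libraries. Of the reads of miR-344d-3-5p and miR-344d-3p together, the 5p arm made up 5.74% ± 1.11 of the total in KO (SD, n = 3) and 4.09% ± 0.417 in WT (SD, n = 3). The KO libraries had 5.52% (95% Wilson interval 4.91 to 6.20), 4.75% (4.09 to 5.52) and 6.94% (5.73 to 8.40), and the WT libraries 3.98% (3.36 to 4.71), 4.56% (3.83 to 5.41) and 3.75% (3.15 to 4.46). Every KO library was above every WT library, but the lowest KO interval overlaps all 3 WT intervals. The interval of KO replicate 1 overlaps that of WT replicate 2, so only that of KO replicate 3 lies above all 3 WT intervals. KO replicate 3, which was low in the 3p arm and near the WT level in the 5p arm, had the highest 5p share. This share was chosen after its values were seen and is given without a test. How many other arm pairs separate in this way was not determined, so the separation cannot be set against a background. The denominator includes 3p reads of all 3 d hairpins.

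Other members varied less. For miR-344b-3p the KO replicates gave 58.9, 60.2 and 49.5 CPM and the WT replicates 59.97, 65.2 and 62.02 CPM, with a log2 fold change of -0.15 (SE 0.18). For miR-344f-3p the KO replicates gave 13.3, 12.95 and 11.1 CPM and the WT replicates 13.1, 12.9 and 15.1 CPM, with a log2 fold change of -0.13 (SE 0.20). In both, KO replicate 3 was the lowest of the 6 libraries on the TMM scale. In the deposited TPM, KO replicate 2 was the lowest instead, at 49.8 for miR-344b-3p and 10.7 for miR-344f-3p, against 53.7 and 12.1 in KO replicate 3. The TMM factor of KO replicate 2 was 0.827, against 0.966 to 1.092 in the other 5 libraries. The least abundant tested member, miR-344h-3p, whose identical hairpins lie between Mir344e and Mir344b, gave 2.73, 2.19 and 1.48 CPM in KO replicates, against 1.90, 2.28 and 2.17 CPM in WT replicates, from 18 to 40 reads per library. Its log2 fold change was 0.02 (SE 0.32), with KO replicate 1 highest and KO replicate 3 lowest, as for miR-344d-3p.

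**Figure D4:**
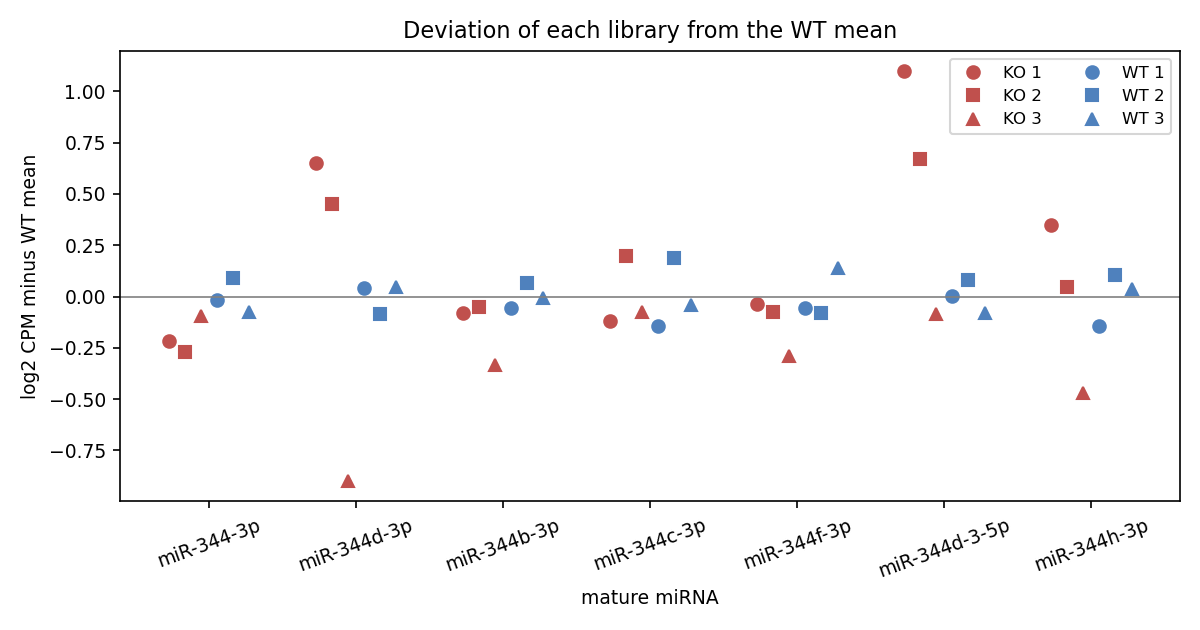
Difference of each library's log2 CPM from the WT mean (y axis) for the 7 tested members, KO in red and WT in blue. KO replicate 3 lies 0.90 below the WT mean for miR-344d-3p and KO replicate 1 lies 1.10 above it for miR-344d-3-5p, whereas all libraries of miR-344-3p lie within -0.27 and 0.09.

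Across the 6 libraries, the members formed no single pattern. The correlation of log2 CPM was highest between miR-344d-3p and miR-344h-3p (Pearson r = 0.897), followed by miR-344d-3p and its 5p arm (r = 0.782) and by miR-344b-3p and miR-344f-3p (r = 0.745). The lowest values were between miR-344-3p and miR-344d-3-5p (r = -0.724) and between miR-344-3p and miR-344d-3p (r = -0.479). Between miR-344-3p and its seed partner miR-344c-3p, r was 0.025. These are descriptions over 6 libraries that share depth, scaling and tissue pieces. The SD of log2 CPM was larger in KO than in WT for 7 of 7 tested members, as for 83.5% of all tested miRNAs. Its median over members was 0.172 in KO and 0.0848 in WT, beside 0.396 and 0.140 over all tested miRNAs.

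Summed over the kept members, the family stood at 1139.5, 1071 and 972.4 CPM in KO replicates, against 1127, 1184 and 1100.02 CPM in WT replicates. The group means were 1061 ± 84.0 and 1137 ± 42.8 CPM (SD, n = 3 each), a log2 ratio of -0.10, and the groups overlapped. Among the KO libraries the sum on the TMM scale had the order of miR-344d-3p, with KO replicate 1 highest and KO replicate 3 lowest. As a share of all reads, KO replicate 2 was lowest instead (0.124%, 0.0885% and 0.105% in KO replicates 1 to 3). Among these libraries miR-344-3p was highest in KO replicate 3. The miRNAs outside the family whose log2 CPM was most like the summed level were miR-125b-2-3p (Pearson r = 0.966 over 6 libraries), miR-221-3p (0.951), miR-503-3p (0.942), miR-203-3p (0.934) and miR-98-5p (0.932). All 5 had their lowest value in KO replicate 3 on the TMM scale, such as 146.98 CPM for miR-221-3p against 215.4 to 285.6 in the other libraries. They were chosen by likeness to a sum that was itself lowest in that library on this scale, so this is not separate evidence.

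The seed partner outside the family, miR-410-3p, gave 94.6, 126.3 and 109.5 CPM in KO replicates, against 131.2, 134.7 and 116.8 CPM in WT replicates. Its groups overlapped and its log2 fold change was -0.21 (SE 0.19, edgeR adjusted p = 0.791). It did not share the order of miR-344d-3p among the KO libraries, since KO replicate 1 was its lowest library and the highest of miR-344d-3p. The seed AUAUAAC was thus carried mainly by miR-344d-3p and miR-410-3p, at means of 199.9 and 127.6 CPM in WT and 231.4 and 110.1 CPM in KO, while miR-344e-3p added 0.229 and 0.262 CPM.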

How the data were processed

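Per the labels' protocols, adaptors were ligated to both ends of RNA from cortex, and products were amplified, size-selected and sequenced from a single end. The submitters' processing notes list Bowtie, DESeq2 and build mm10. Not given in the sources used here are the miRBase release and how mismatches, multiple matches and strand were handled. Per the file headers, the authors deposited a read count for each mature miRNA (whole numbers, not normalized). Per the file headers they also deposited TPM, in which each library sums to the same total and no length term enters (the largest difference from values recomputed this way was 4.9e-10). Columns were matched to sample titles by number, and 0 columns belonged to no sample.

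Counts were analysed with edgeR 4.0.16 (R 4.3.3), with filterByExpr (minimum count 10, leaving 541 of 1182 rows), TMM, and the quasi-likelihood test with robust estimation. Benjamini-Hochberg adjustment ran over all 541, with a threshold of 0.05. Standard errors and 95% intervals come from the same fit. Log2 CPM used a prior count of 2. DESeq2 1.42.0, limma 3.58.1 and other settings served as alternatives. The procedure was tested on simulated data. Pairs of libraries differed beyond sampling noise (chi-square per degree of freedom at least 30), so none was counted as a duplicate. No 2 kept members had counts within 3% of each other in every library. Sequences and hairpin positions come from RefSeq (GRCm38.p6), host genes from GENCODE M21, and share intervals from scipy 1.17.1.

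The members and the 8 marker lists were chosen with earlier results of these data known. All kept members are named, with the 5 miRNAs most alike in pattern and those that share a seed. Other names were chosen after their values were seen. RefSeq mature names of the family with no row in the table were not analysed here.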

Additional observations from a re-analysis of the deposited data

How the results depend on the processing

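No miR-344 row passed the threshold under 12 of 13 alternatives (other size factors, scaling without the 5 most abundant miRNAs, no count filter, no robust estimation, DESeq2, limma-voom, limma on log2 of the deposited TPM plus 1, and each library left out but KO replicate 3). Over left-out libraries the count ranged from 0 to 2 for the family and from 0 to 18 for all miRNAs, with the upper values without KO replicate 3. The log2 fold change kept its sign under all 13 for miR-344-3p (-0.23 to -0.10), miR-344b-3p (-0.25 to -0.05), miR-344f-3p (-0.21 to -0.04) and miR-344d-3-5p (0.36 to 0.92). That of miR-344d-3p ranged from -0.063 (without KO replicate 1) to 0.57 over left-out libraries. Members with estimates near 0 turned sign. For miR-344c-3p this gave -0.018 with limma on TPM and -0.15 to 0.13 over left-out libraries, with negative values of -0.15 (without KO replicate 2), -0.075 (without WT replicate 1) and -0.011 (without WT replicate 3). For miR-344h-3p it gave -0.0072 with limma-voom, -0.023 with limma on TPM and -0.19 to 0.24 over left-out libraries, with negative values of -0.19, -0.053 and -0.064 without KO replicate 1, KO replicate 2 and WT replicate 1. The log2 ratio of the summed family level stayed negative, from -0.15 to -0.04 over left-out libraries and -0.02 when scaled without the 5 most abundant miRNAs. Counting near-identical rows once was not run because no kept pair qualified. No paired analysis was possible because the labels give no replicate numbers. Depth limits the 3 kept members with at most 20 reads in all.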

Other observations

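The miRNAs outside the family that most resembled miR-344d-3p across libraries were chosen after its values were seen, by the correlation of log2 CPM over 6 libraries. They were miR-3074-1-3p (Pearson r = 0.991), miR-1964-3p (0.989), miR-467a-5p and miR-467b-5p (both 0.985) and miR-130b-5p (0.980). The rows of miR-467a-5p and miR-467b-5p held the same counts in every library and are not separate evidence. KO replicates 1 to 3 gave 214.99, 199.2 and 62.6 CPM for miR-467a-5p, against 136.3, 145.4 and 145.4 CPM in WT replicates 1 to 3. For miR-1964-3p the KO replicates gave 81.01, 60.4 and 18.1 CPM and the WT replicates 42.9, 39.8 and 51.2 CPM. In each of these, as in miR-344d-3p, KO replicates 1 and 2 were above and KO replicate 3 below all WT libraries on the TMM scale. These miRNAs were chosen by likeness to miR-344d-3p, so the shared order is not separate evidence. None passed the edgeR test over all libraries, with log2 fold changes of 0.15 (miR-3074-1-3p), 0.25 (miR-1964-3p), 0.16 (miR-467a-5p) and 0.24 (miR-130b-5p) and adjusted p-values of 0.882, 0.882, 0.894 and 0.882.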
